A study of Mus musculus with 17 samples.

Results

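The choroid plexus, the vascular epithelial tissue of the brain ventricles that secretes cerebrospinal fluid, also loads that fluid with water-soluble vitamins and sulfate from the blood. Expression of 7 transporter and receptor genes for these solutes was described here: *Folr1*, *Slc46a1* and *Slc19a1* for folate, *Slc23a2* for ascorbate, *Slc13a4* for sulfate, *Slc5a6* for biotin and pantothenate, and *Slc19a2* for thiamine. They were chosen by name, and all 7 were found among the 55487 Ensembl genes of the count table by their GENCODE M21 symbols; all 7 were also among the 16851 genes that passed the filter on low counts. RNA came from whole choroid plexus dissected from the lateral ventricles (C57BL/6 mice). Mice were given DSS, dextran sodium sulfate, which causes colitis by damaging the gut lining; the CTRL group (n = 5 libraries) is labelled as control, with no more said of how it was kept. The T1 group had 1 day of DSS, the T3 group had 3 days, and the T5 group had 3 days of DSS followed by 2 days of water (n = 4 libraries each). The labels give no sex, age, dose of DSS or pooling, and do not say that libraries of a group came from separate mice, so the p-values measure the spread between these libraries, which can be technical in part.

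Folate enters the cerebrospinal fluid mainly through the choroid plexus, where a high-affinity receptor takes folate up on the basolateral side and carries it in vesicles to the ventricular side, and loss of this receptor in humans causes cerebral folate deficiency. Ascorbate is likewise concentrated from blood to cerebrospinal fluid by a sodium-coupled carrier of the choroid epithelium, and from there reaches neurons. Sodium-coupled carriers of the epithelium also move sulfate, which cells use to sulfate proteoglycans, steroids and other molecules, and biotin with pantothenate. Thiamine crosses by facilitated carriers related in sequence to the reduced folate carrier.

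Library totals lay between 16021690 and 25854664 counts for CTRL, between 8875921 and 23555242 for T1, between 10881890 and 26839417 for T3 and between 12477553 and 19928986 for T5. The 20 choroid plexus epithelium markers checked (*Ttr*, *Kl*, *Aqp1*, *Otx2* and others) were present in all 17 libraries, with none at 0, and summed to between 138900 and 207300 CPM (reads of a gene relative to the TMM-scaled total of the library, on the CPM scale) for CTRL, between 102000 and 227700 for T1, between 117400 and 195300 for T3 and between 143400 and 220000 for T5. Markers of brain tissue varied far more: the 8 oligodendrocyte markers summed to between 96.4 and 7017 CPM for CTRL, between 305.1 and 9123 for T1, between 169.6 and 974.2 for T3 and between 438.5 and 16380 for T5. In such whole-tissue RNA, fewer cells of a type and less RNA per cell cannot be told apart. Features of 5 libraries touch the results. CTRL replicate 1 stood apart from the other CTRL libraries, and 4 libraries (T1 replicates 2, 3 and 4 and T3 replicate 4) carry sample title numbers of 28 and above, and are given apart where they differ from the other 13.

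Set per length of merged exons, which allows levels of different genes to be compared, the 7 genes ran from rank 42 to rank 4233 of 16848 genes in CTRL. *Folr1*, the GPI-anchored high-affinity folate receptor, stood highest at 725.5 ± 232.2 CPM per kb in CTRL (SD, n = 5) and held rank 42. *Slc13a4*, the sodium-sulfate cotransporter of the choroid plexus and the meninges, followed at 128.1 ± 30.8 CPM per kb and rank 377. *Slc23a2*, a sodium-coupled ascorbate transporter found in choroid plexus and in neurons, stood at 52.3 ± 12.9 CPM per kb and rank 1000. These 3 kept their order in all 17 libraries, and the CTRL ranges of *Folr1* and *Slc13a4* and of *Slc13a4* and *Slc23a2* did not touch.

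The other 4 genes lay lower. *Slc46a1*, the proton-coupled folate transporter, reached 37.7 ± 9.63 CPM per kb in CTRL, and *Slc5a6*, the sodium-dependent transporter of biotin, pantothenate and lipoate, 37.2 ± 9.38. These neighbours could not be ordered, since *Slc46a1* was the higher in 11 of the 17 libraries. *Slc19a1*, the reduced folate carrier, stood at 31.2 ± 7.47 CPM per kb; it lay below *Slc5a6* in all 17 libraries, although their CTRL ranges overlapped. *Slc19a2*, a high-affinity thiamine transporter, was lowest at 9.76 ± 3.20 CPM per kb and rank 4233, and its range over the 17 libraries did not reach that of *Slc19a1*. In raw counts, the fewest in 1 library were 301 for *Slc19a2* and 1002 to 10790 for the other genes, so counting error was small beside the spread between libraries.

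**Figure D1:**
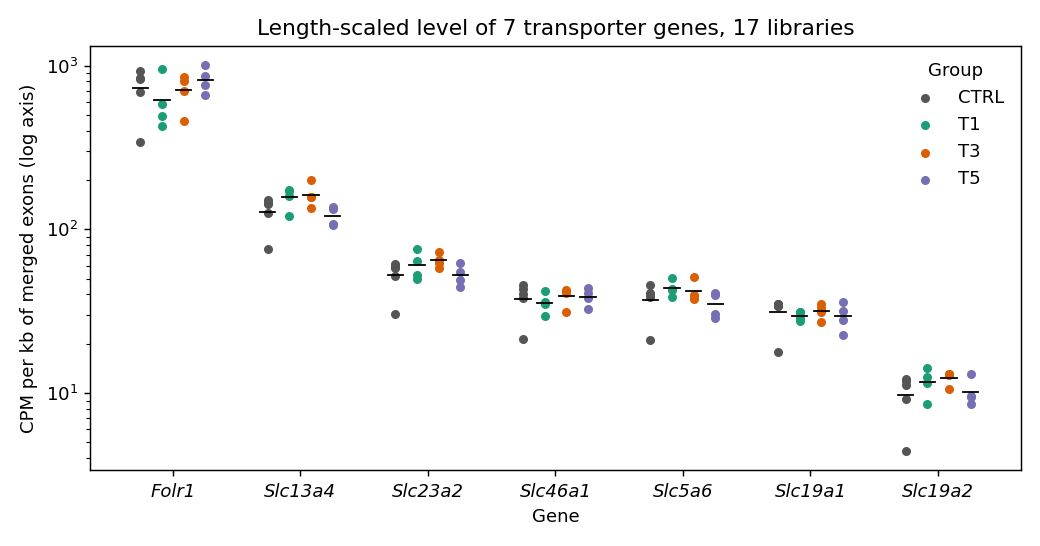
Length-scaled level of each gene (CPM per kb of merged exons, log axis) in the CTRL, T1, T3 and T5 libraries, 1 point per library with the group mean as a bar. *Folr1* lies above every other gene in each library and *Slc19a2* below every other gene, and the point lowest in each column of CTRL is replicate 1.

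Relatives that can bind or carry the same solutes lay lower. Levels of these relatives are CPM of the library totals. Of the other ascorbate carrier, *Slc23a1*, 97 reads were counted in all 17 libraries together, with a median of 0.279 CPM. The kidney and gut sulfate carrier *Slc13a1* had 17 reads in total and was at 0 in 11 libraries. The folate receptor gene *Folr2*, known from macrophages, had a median of 1.27 CPM, and the thiamine transporter gene *Slc19a3* a median of 2.20 CPM. Among sulfate carriers, *Slc26a2*, a sulfate exchanger of broad distribution, had a median of 29.9 CPM and *Slc26a11* one of 8.22 CPM. On the length-scaled measure the median of *Slc26a2* was 2.42 CPM per kb, far under the range of *Slc13a4* (75.3 to 199.8 CPM per kb). These relatives were picked for comparison after the levels of the 7 genes were known.

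The genes lie on 7 different chromosomes of GRCm38. *Folr1* (ENSMUSG00000001827) spans chr7:101858331-101870788 on the minus strand, *Slc46a1* (ENSMUSG00000020829) chr11:78465697-78472059 on the plus strand and *Slc19a1* (ENSMUSG00000001436) chr10:77032241-77061002 on the plus strand. *Slc23a2* (ENSMUSG00000027340) spans chr2:132052496-132145108 and *Slc13a4* (ENSMUSG00000029843) chr6:35267957-35308131, both on the minus strand. *Slc5a6* (ENSMUSG00000006641) spans chr5:31036036-31048924 on the minus strand and *Slc19a2* (ENSMUSG00000040918) chr1:164249046-164265385 on the plus strand. Each is a protein-coding gene in the annotation. *Slc5a6* shares 396 exonic bases, 9.92% of its exonic length, with *Atraid* on the other strand; reads there cannot be assigned with certainty because the strand setting of the counting is not given in the sources used here. The other 6 share no exonic base with an annotated gene.

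Promoter sequence was matched from RefSeq (GRCm38.p6) for 6 of the 7 genes, in 9 entries, and the 250 bases before the start were read. Below are the promoters of *Slc13a4*, whose difference between T5 and T3 alone had an unadjusted p under 0.05, of *Slc23a2*, which varied like it across libraries, and of *Slc46a1*, which did not. They are given 5′ to 3′ on the strand of the gene; capitals mark CCAAT or its reverse complement ATTGG and GGGCGG or its reverse complement CCGCCC. They lie at chr6:35308127-35308376 (minus strand), chr2:132145321-132145570 (minus strand) and chr11:78465451-78465700 (plus strand).
Slc13a4: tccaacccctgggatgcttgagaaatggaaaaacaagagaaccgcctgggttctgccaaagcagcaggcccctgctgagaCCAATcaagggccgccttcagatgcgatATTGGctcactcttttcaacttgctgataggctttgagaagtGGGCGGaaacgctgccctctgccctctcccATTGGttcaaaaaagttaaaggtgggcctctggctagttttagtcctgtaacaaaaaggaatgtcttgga
Slc23a2: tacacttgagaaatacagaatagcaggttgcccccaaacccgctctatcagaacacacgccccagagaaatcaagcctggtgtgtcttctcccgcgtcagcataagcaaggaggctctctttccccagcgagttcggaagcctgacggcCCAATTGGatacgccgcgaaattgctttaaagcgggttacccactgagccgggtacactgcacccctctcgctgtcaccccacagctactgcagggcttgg
Slc46a1: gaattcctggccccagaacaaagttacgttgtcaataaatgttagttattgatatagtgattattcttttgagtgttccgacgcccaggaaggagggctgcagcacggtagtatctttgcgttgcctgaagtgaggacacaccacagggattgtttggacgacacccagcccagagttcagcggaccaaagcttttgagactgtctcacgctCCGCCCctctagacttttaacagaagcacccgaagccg
The *Slc13a4* promoter holds 3 separate CCAAT matches and 1 GGGCGG match, at 50.4% GC. The *Slc23a2* entry shown holds 2 CCAAT matches, which overlap each other on opposite strands, and no GGGCGG match, at 56.0% GC. The other *Slc23a2* entry holds no CCAAT and 6 GGGCGG matches, at 78.8% GC. That other entry, at chr2:132145109-132145358, adjoins the GENCODE start of the gene, while the entry shown lies further upstream. The *Slc46a1* promoter holds 1 GGGCGG match and no CCAAT, at 49.6% GC. *Slc19a2* had 2 CCAAT matches, 1 of the 2 *Slc5a6* entries had 1 and neither *Slc19a1* entry had any. *Slc5a6* varied even more like *Slc13a4* than *Slc23a2* did, and its entries are not printed. Any tie between matches and shared variation was not tested. Over all 32851 promoters of the table, 33.8% hold CCAAT on either strand and 32.7% GGGCGG, so such matches are common, and they describe the letters only. TATAAA (12.4% of promoters, either strand) and TAATCC, a core bound by homeodomain factors of the OTX family (6.25%), were found in none of the 9 entries.

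None of the 7 genes passed edgeR's quasi-likelihood test, adjusted over all genes, between a DSS group and CTRL or between T5 and T3. The lowest adjusted p among 28 gene and comparison pairs was 0.364 (*Slc13a4*, T1 against CTRL). The same held over the whole transcriptome in this test: 0% of the 16851 tested genes were called in each of the 4 comparisons. At an unadjusted p under 0.05 were 21.1% of genes in T1 against CTRL, 4.97% in T3 against CTRL, 7.83% in T5 against CTRL and 10.5% in T5 against T3, and of the 7 transporter genes 0, 0, 0 and 1. By direction, 3.2% of genes were higher and 1.77% lower in T3 than in CTRL at that level, and 3.89% higher and 3.94% lower in T5 than in CTRL. DESeq2 called 826 genes in T1 against CTRL, 2 in T3 against CTRL, 16 in T5 against CTRL and 84 in T5 against T3, and limma-voom with quality weights 4084 in T1 against CTRL and 0 in the others; the transporter genes were among none of these calls. The comparisons with CTRL share the CTRL libraries and are not independent of each other.

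A missed threshold does not show equal expression, so the intervals matter. Of the 28 intervals (95%), 27 held 0. Their outermost bounds were -0.84 (*Slc13a4*, T5 against T3, a ratio of 0.558) and 0.84 (*Folr1*, T5 against T3, a ratio of 1.79) on the log2 scale. In none of the 4 comparisons did any of the 7 genes have groups that did not overlap; among all genes the groups of T1 and CTRL did not overlap for 2.9% (higher in T1) and 3.86% (lower), those of T3 and CTRL for 0.783% and 0.92%, those of T5 and CTRL for 0.985% and 1.57%, and those of T5 and T3 for 3.04% and 4.31%.

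**Figure D2:**
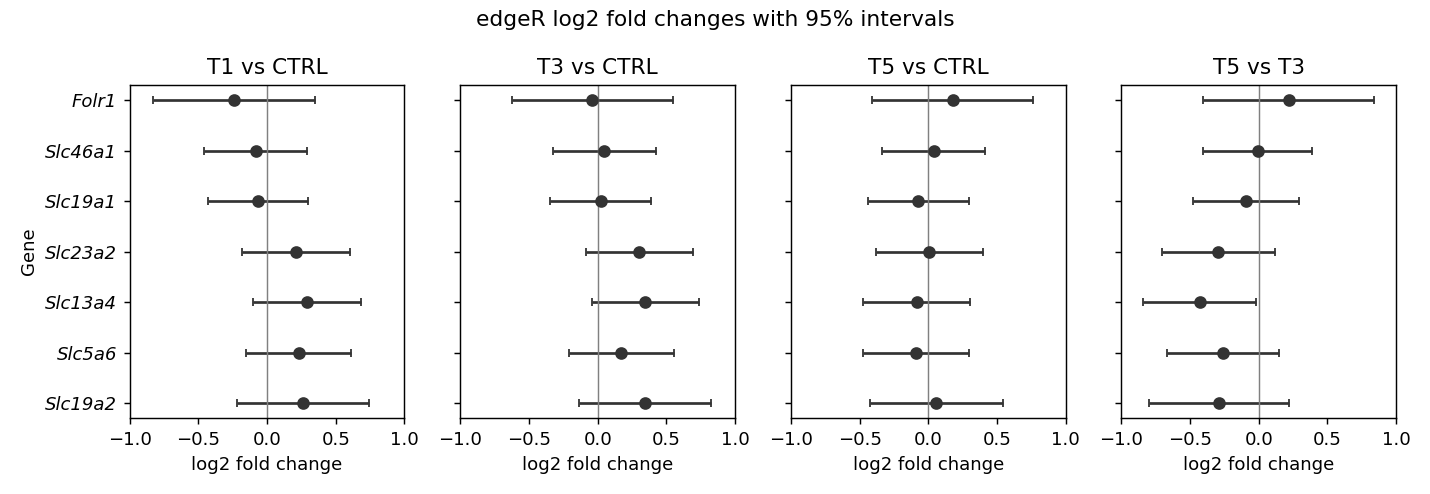
Log2 fold change (horizontal axis, first-named group over the other) of each gene in 4 comparisons, with 95% intervals from the edgeR fit over 17 libraries. Every interval but that of *Slc13a4* in T5 against T3 crosses 0, and the intervals of *Folr1* are the widest.

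Among the folate genes, *Folr1* varied widely between libraries, while *Slc46a1* and *Slc19a1* had log2 fold changes against CTRL between -0.08 and 0.05 in all 3 DSS groups. *Folr1* stood at 781.1, 1905, 1928, 2137 and 1582 CPM in CTRL replicates 1 to 5, at 2196, 1329, 1135 and 982.5 CPM in T1 replicates 1 to 4, at 1963, 1615, 1862 and 1050 CPM in T3 and at 1980, 1512, 1742 and 2309 CPM in T5. The lowest libraries were thus CTRL replicate 1 and the 4 libraries of title number 28 and above, and every group overlapped with every other. The log2 fold changes were -0.24 ± 0.28 (SE) in T1, -0.04 ± 0.28 in T3 and 0.18 ± 0.28 in T5 against CTRL (edgeR adjusted p = 0.623, 0.986 and 0.927). These estimates moved with the libraries used: without the 4 libraries of title number 28 and above, where T1 keeps 1 library and borrows its spread from the other groups, the T1 value was 0.38 (edgeR adjusted p = 0.935).

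*Slc46a1*, whose loss in humans leaves the cerebrospinal fluid low in folate, had similar group means, each within the SD of CTRL. It stood at 65.4, 124.0, 140.0, 133.8 and 117.8 CPM in CTRL, at 128.5, 111.5, 107.6 and 91.2 CPM in T1, at 128.5, 125.2, 131.5 and 95.8 CPM in T3 and at 134.1, 100.4, 116.8 and 126.5 CPM in T5. Its log2 fold changes against CTRL were -0.08 ± 0.18 in T1, 0.05 ± 0.18 in T3 and 0.04 ± 0.18 in T5 (edgeR adjusted p = 0.8, 0.971 and 0.978). Its 95% intervals reached from -0.46 to 0.42 over these 3 comparisons. *Slc19a1* stood at 82.7, 158.6, 161.5, 162.3 and 158.2 CPM in CTRL, at 128.4, 145.2, 145.4 and 133.7 CPM in T1, at 125.7, 144.4, 162.6 and 154.4 CPM in T3 and at 167.8, 105.0, 129.2 and 148.0 CPM in T5. CTRL replicate 1 was far the lowest, and the ranges of all groups overlapped. The log2 fold changes of *Slc19a1* against CTRL were -0.07 ± 0.17 in T1, 0.02 ± 0.17 in T3 and -0.07 ± 0.17 in T5 (edgeR adjusted p = 0.838, 0.987 and 0.954). Without CTRL replicate 1 that for T1 was -0.20, with an edgeR adjusted p of 0.321.

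The carriers for sulfate, ascorbate, biotin with pantothenate, and thiamine shared 1 direction in mean values: higher in T1 and T3 than in CTRL, and near CTRL in T5. None of these differences passed the test, and the direction in T1 depended on the libraries. Without the 4 libraries of title number 28 and above, the T1 log2 fold change was -0.12 for *Slc13a4*, -0.02 for *Slc23a2*, 0.03 for *Slc5a6* and 0.22 for *Slc19a2*. Without CTRL replicate 1 it was 0.16, 0.08, 0.09 and 0.09 for the same genes in that order. *Slc13a4* stood at 341.1, 656.7, 680.1, 573.0 and 649.7 CPM in CTRL, at 543.9, 791.0, 779.4 and 723.2 CPM in T1, at 613.8, 713.5, 716.7 and 904.5 CPM in T3 and at 622.1, 488.9, 478.8 and 599.1 CPM in T5. All 4 T3 libraries lay above the CTRL mean, the highest being T3 replicate 4, and the ranges overlapped. Without CTRL replicate 1 the CTRL mean of *Slc13a4* was 639.9 CPM, and T3 replicate 1 lay below it. Its log2 fold change was 0.29 ± 0.18 in T1, 0.35 ± 0.18 in T3 and -0.08 ± 0.19 in T5 against CTRL (edgeR adjusted p = 0.364, 0.911 and 0.949).

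Between T5 and T3, *Slc13a4* averaged 547.2 ± 73.9 CPM in T5 and 737.1 ± 121.4 CPM in T3 (SD, n = 4 each), a log2 fold change of -0.43 ± 0.20 (interval -0.84 to -0.02). This was the only one of the 28 at an unadjusted p under 0.05 (edgeR adjusted p = 0.457, 0.0422 before adjustment), in a comparison where 6.15% of all genes were lower at that level. All 4 T5 libraries lay below the T3 mean. The T5 and T3 ranges overlapped only through T5 replicate 1 (622.1 CPM) and T3 replicate 1 (613.8 CPM). Over the alternatives tried, the log2 fold change ran from -0.51 to -0.31 and the adjusted p from 0.226 to 0.697.

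Epithelium markers also ran lower in T5 than in T3. Of the 20, 4 were higher in T5, and the median log2 fold change was -0.17, beside 0.01 for all genes. With the mean log2 CPM of these markers taken off, *Slc13a4* stood at -0.82, -0.65, -0.64 and 0.09 in T3 replicates 1 to 4. On that scale it stood at -0.66, -0.74, -0.89 and -0.89 in T5 replicates 1 to 4, and T5 against T3 was not tested. *Slc13a4* is also known from the meninges, so meningeal markers were read beside it. The 13 fibroblast and meningeal markers summed to 13870 CPM in T3 replicate 4, the library with the highest *Slc13a4*, against 3523 to 5114 CPM in the other T3 libraries. They summed to 17110 CPM in T5 replicate 1, the highest of all, where *Slc13a4* was 622.1 CPM, the top of its group. *Slc13a3*, a dicarboxylate carrier of the same family, followed them, at 125.0 normalised CPM in T3 replicate 4, 42.9 CPM in T5 replicate 1 and 0.336 to 21.6 CPM elsewhere. *Slc13a4* and the marker sums did not go together in all libraries. T1 replicates 2 and 3, next highest in *Slc13a4* at 791.0 and 779.4 CPM, had sums of 3051 and 3103 CPM. T1 replicate 1 had a sum of 5234 CPM and the lowest *Slc13a4* of T1, at 543.9 CPM. The sums rested largely on 1 gene, *Ptgds*, which averaged 3410 ± 1090 CPM in T1 and 3030 ± 931 CPM in CTRL. The mean log2 CPM of the 13 markers gave another order in T1, at 5.26, 4.92, 5.43 and 5.68 in replicates 1 to 4. It was 6.94 in T3 replicate 4 and 6.72 in T5 replicate 1. The part of fibroblast and meningeal cells in the *Slc13a4* values was not tested.

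*Slc23a2* stood at 240.0, 474.3, 464.5, 410.4 and 490.3 CPM in CTRL, at 416.6, 606.3, 508.8 and 392.6 CPM in T1, at 462.8, 517.3, 492.8 and 579.6 CPM in T3 and at 494.4, 354.9, 387.3 and 437.4 CPM in T5. T1 spread the most of the DSS groups, around a mean close to that of T3. The log2 fold changes against CTRL were 0.21 ± 0.19 in T1, 0.30 ± 0.19 in T3 and 0.01 ± 0.19 in T5 (edgeR adjusted p = 0.51, 0.911 and 0.994), and that of T5 against T3 was -0.29 ± 0.20 (edgeR adjusted p = 0.578). Because neurons also use this carrier, their 10 markers were read beside it: their sums lay between 16.4 and 116.7 CPM for CTRL, between 106.9 and 391.3 for T1, between 23.98 and 446.7 for T3 and between 66.5 and 728.0 for T5. With the mean log2 CPM of the neuron, astrocyte and oligodendrocyte markers as a covariate the log2 fold changes were 0.29, 0.31 and 0.09 in T1, T3 and T5 against CTRL (edgeR adjusted p = 0.53, 0.715 and 0.915).

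*Slc5a6* stood at 84.2, 181.4, 158.3, 155.0 and 164.0 CPM in CTRL, at 154.2, 200.4, 171.8 and 170.2 CPM in T1, at 150.6, 156.8, 158.6 and 204.0 CPM in T3 and at 159.5, 115.0, 120.7 and 163.8 CPM in T5. All T1 and T3 libraries lay above the CTRL mean of 148.6 CPM, but only T1 replicate 2 and T3 replicate 4 lay above the highest CTRL library. Its log2 fold changes against CTRL were 0.23 ± 0.18 in T1, 0.17 ± 0.18 in T3 and -0.09 ± 0.18 in T5 (edgeR adjusted p = 0.465, 0.916 and 0.943), and that of T5 against T3 was -0.26 ± 0.19 (edgeR adjusted p = 0.611). *Slc19a2* stood at 17, 46.9, 42.9, 35.3 and 45.3 CPM in CTRL, at 44.3, 54.6, 48.1 and 32.7 CPM in T1, at 40.7, 49.2, 50.1 and 50.4 CPM in T3 and at 36.6, 36.3, 32.9 and 50.4 CPM in T5. The T3 libraries were tightly grouped and all above the CTRL mean of 37.5 CPM. Without CTRL replicate 1 that mean was 42.6 CPM, and T3 replicate 1 lay below it. The log2 fold changes of *Slc19a2* against CTRL were 0.26 ± 0.23 in T1, 0.34 ± 0.23 in T3 and 0.06 ± 0.23 in T5 (edgeR adjusted p = 0.505, 0.911 and 0.977), and that of T5 against T3 was -0.29 ± 0.24 (edgeR adjusted p = 0.655).

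**Figure D3:**
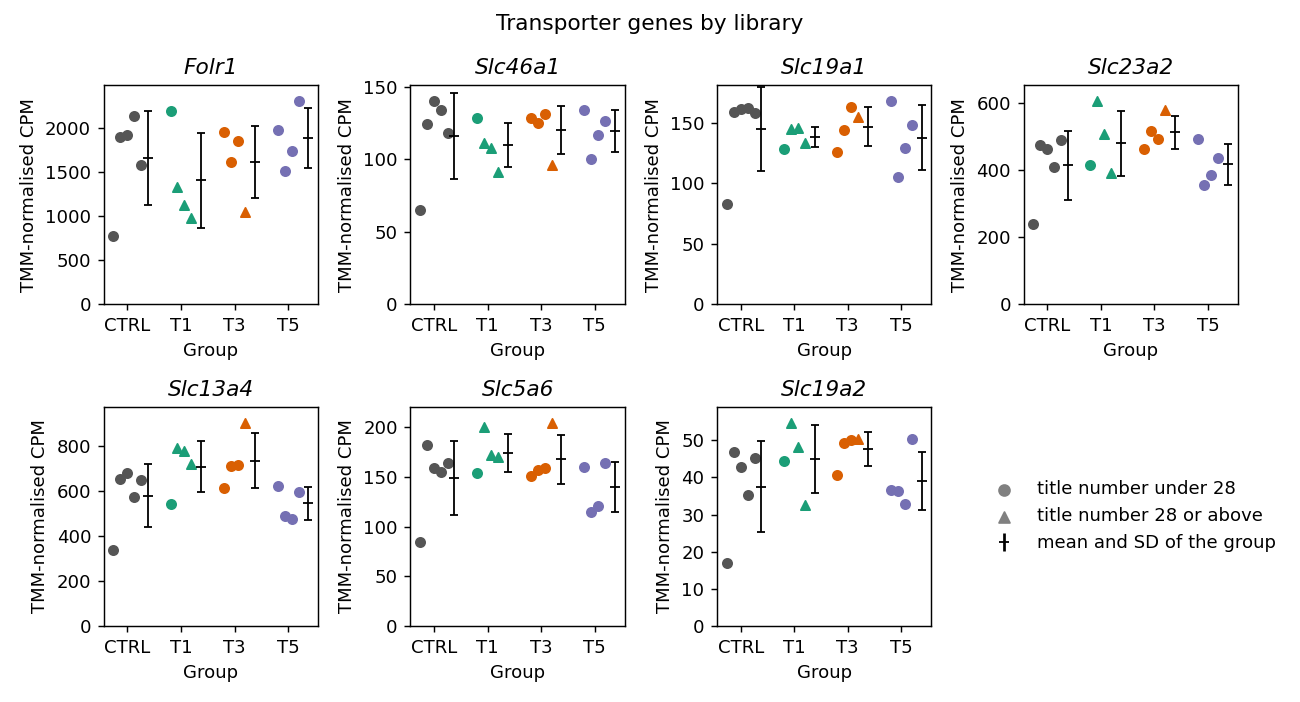
TMM-normalised CPM of each gene (vertical axes from 0) in every library of CTRL, T1, T3 and T5, with the mean and SD of each group; triangles mark the 4 libraries of title number 28 and above. CTRL replicate 1 is the lowest CTRL point in all 7 panels, and the triangles lie low for *Folr1* and high for *Slc13a4*.

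A single library held down the CTRL means. CTRL replicate 1 was the lowest CTRL library for all 7 genes, at 39.9% (*Slc19a2*) to 53.3% (*Slc13a4*) of the mean of the other 4; among all tested genes it was the lowest CTRL library for 23.9%. It was also lowest for 17 of the 20 epithelium markers, whose mean log2 CPM was 9.50 there and 9.98 to 10.11 in the other 4. *Folr1* stood at 781.1 CPM in it and at 1888 ± 229.1 CPM in the other 4 CTRL libraries (SD). *Ttr*, the transthyretin gene of the epithelium, was also lowest there among CTRL libraries, at 90700 CPM beside 98500 to 141000 CPM in the other 4. The oligodendrocyte markers summed to 3571 CPM in CTRL replicate 1 and to 96.4 to 7017 CPM over CTRL. Endothelial (274.9 CPM), mural cell (150.5 CPM) and neuron (116.7 CPM) marker sums were the highest of CTRL there. In the other 4 they ran from 121.6 to 213.6, from 54.4 to 94.96 and from 16.4 to 105.8 CPM. Sums of the other types, epithelium apart, lay within the range of the other 4. It had 24824 genes with at least 1 read, beside 22148 to 23000 in the other 4. The part of these features in its low values was not tested.

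Fitted without CTRL replicate 1, the T3 values against CTRL were 0.20 for *Slc13a4*, 0.15 for *Slc23a2*, 0.15 for *Slc19a2* and 0.02 for *Slc5a6* on the log2 scale (edgeR adjusted p = 0.934, 0.934, 0.934 and 0.988), against 0.35, 0.30, 0.34 and 0.17 with all libraries. Fitted without it and without the 4 libraries of title number 28 and above, a choice made after the data were seen, the log2 fold changes of T3 against CTRL ran from -0.15 (*Slc19a1*) to 0.13 (*Slc19a2*) over the 7 genes, with *Slc13a4* at 0.09, and those of T5 against CTRL from -0.25 (*Slc5a6*) to -0.01 (*Folr1*). The values of T5 against T3 do not use CTRL libraries as a group; in the same fit *Slc13a4* stood at -0.32 and *Slc23a2* at -0.24 (edgeR adjusted p = 0.226 and 0.298).

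*Folr1* and the sulfate carrier parted between the 4 libraries of title number 28 and above and the other 13. The split was not particular to these genes. Genes with at least 1 read numbered 26356 to 30293 in the 4 and 21315 to 24824 in the 13. The 12 endothelial markers summed to 315.4 to 561.8 CPM in the 4 and 121.6 to 274.9 CPM in the 13. Any tie of these features to the transporter values was not tested. *Folr1* averaged 1124 ± 150.2 CPM in the 4 and 1809 ± 390.0 CPM in the 13 (SD), and *Slc46a1* 101.5 ± 9.58 and 120.9 ± 19.4 CPM. *Slc13a4* averaged 799.5 ± 76.0 CPM in the 4 and 590.6 ± 106.5 CPM in the 13, and *Slc5a6* 186.6 ± 18.1 and 147.8 ± 25.9 CPM. The CPM ratio of *Folr1* to *Slc13a4*, which does not depend on how libraries are scaled, was 1.16 to 1.68 in the 4 and 2.26 to 4.04 in the 13, with no overlap. *Ttr* went with *Folr1*, at 54520 to 92020 CPM in the 4 and 89430 to 148900 CPM in the 13. The mean log2 CPM of all 20 epithelium markers, *Ttr* among them, overlapped. It lay between 9.56 and 10.07 in the 4 and between 9.50 and 10.18 in the 13. The set was singled out with values of these data in view, so no test is given. It holds 3 of the 4 T1 libraries and 1 of the 4 T3 libraries: the ratio was 4.04 in T1 replicate 1, outside the set, and 1.16 in T3 replicate 4, within it.

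**Figure D4:**
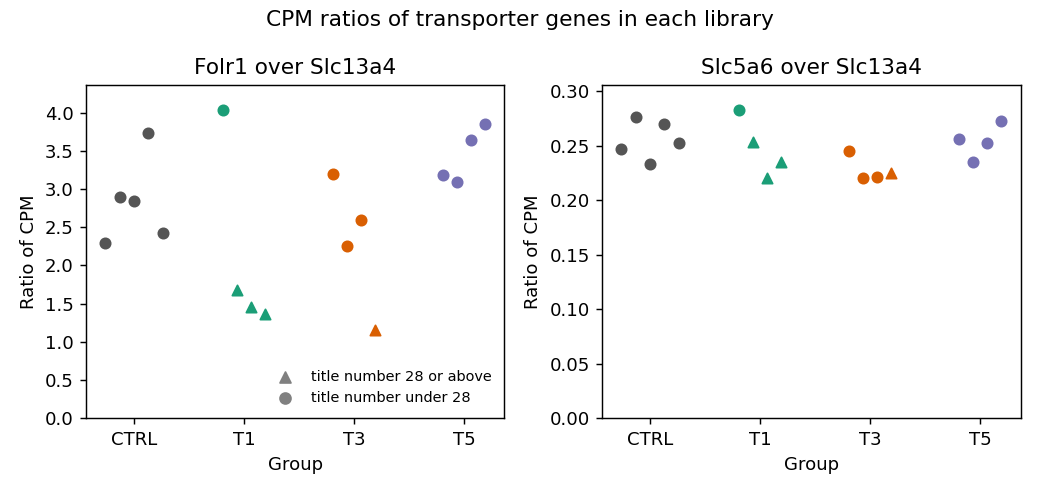
CPM ratio of *Folr1* to *Slc13a4* (left) and of *Slc5a6* to *Slc13a4* (right) in each library of CTRL, T1, T3 and T5; axes start at 0 and triangles mark title numbers of 28 and above. The left ratio is lowest in the 4 triangles (1.16 to 1.68), while the right ratio stays within 0.22 to 0.283 in all 17 libraries.

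Across the libraries some of the 7 genes varied alike. Likeness was taken as the root mean square difference of log2 CPM, each gene centred on its mean over the 17 libraries, among 13027 genes of at least 1 CPM. The sulfate and biotin carriers were close: *Slc13a4* was the third nearest gene to *Slc5a6*, at 0.115, after *Aplp2* (0.108) and *Tmem184b* (0.114), and *Slc5a6* held rank 4 for *Slc13a4*. *Slc23a2* had *Slc5a6* as rank 15 (0.126) and *Slc13a4* as rank 30 (0.132), and its nearest genes were *Timp3* (0.0788), *Aplp2* (0.0794) and *Iqgap1* (0.0932). *Timp3* (0.102) and *Dag1* (0.0943) were also the nearest to *Slc13a4*, with *Hk1* (0.113).

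*Folr1* stood away from these, with *Slc13a4* at rank 7068 (0.536) and *Slc46a1*, the nearest of the other 6, at rank 42 (0.227); its nearest genes were *Yipf1* (0.159), *Bsg* (0.168) and *Tex264* (0.174). *Slc46a1* itself was nearest to *Clu* (0.0676), *Smpd1* (0.0789) and *Tspan33* (0.0807), *Slc19a1* to *Nucb1* (0.0905), *Bcam* (0.0931) and *Pld3* (0.0975), and *Slc19a2* to *Atp2c1* (0.117), *Gpc4* (0.13) and *Atp2a2* (0.142). By this measure the reduced folate carrier lay far from the folate receptor: *Slc19a1* was rank 2661 for *Folr1* (0.379). The measure describes these 17 libraries, whose depth and brain marker levels differed, and any 2 genes share the library and the depth at each point, CTRL replicate 1 included.

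**Figure D5:**
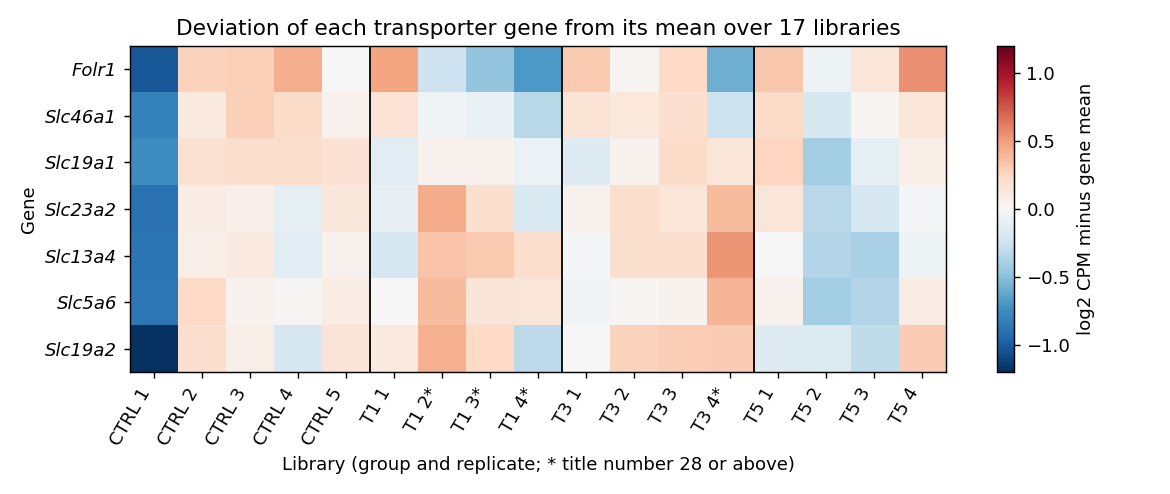
Log2 CPM of each gene minus its mean over 17 libraries (colour, red above and blue below), by library within CTRL, T1, T3 and T5; asterisks mark title numbers of 28 and above. CTRL replicate 1 is blue in every row. *Folr1* and *Slc46a1* are blue where *Slc13a4* and *Slc5a6* are red in T1 replicates 2, 3 and 4 and T3 replicate 4, only faintly for *Slc46a1* in T1 replicate 2.

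Read against the epithelium rather than the whole library, none of the genes showed a difference that passed, in a test with little power to find one. For each library the mean log2 CPM of the 20 epithelium markers was taken from the log2 CPM of each gene, and groups were compared by two-sided exact permutation tests over libraries, adjusted over 21 tests. The lowest exact p was 0.0635 (*Folr1*, T5 against CTRL, adjusted p = 0.542). With 4 libraries against 5, even full separation of the groups for 1 gene would not pass after adjustment over 21 tests. The lack of a passing test here is therefore no evidence of equal levels. On this scale *Folr1* lay at 1.01, 0.89, 0.97 and 1.06 in T5, and at 0.11, 0.81, 0.80, 1.01 and 0.64 in CTRL, a difference of 0.31. The T5 libraries were all at the upper end of CTRL, and CTRL replicate 4 reached among them. Without CTRL replicate 1 the *Folr1* difference was 0.16 (exact p = 0.114, adjusted p = 0.6). *Slc19a2* averaged -4.46 ± 0.19 in T1 and -4.80 ± 0.38 in CTRL, with all 4 T1 libraries above the CTRL mean (exact p = 0.159, adjusted p = 0.542). Without CTRL replicate 1 the CTRL mean was -4.65, the *Slc19a2* difference was 0.18 and 3 of the 4 T1 libraries lay above that mean (exact p = 0.286, adjusted p = 0.6).

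Genes that handle the same vitamins inside the cell were read from lists chosen for their function, with earlier results of these data known. Of 24 tested genes of folate transport and metabolism, 0 passed over all genes in any comparison by edgeR; the median log2 fold change was -0.02 in T1, -0.02 in T3 and -0.07 in T5 against CTRL, beside 0.08, 0.02 and 0.02 for all genes. The mitochondrial folate carrier gene *Slc25a32* averaged 35.5 ± 7.54 CPM in T3 and 25.7 ± 2.04 CPM in CTRL (edgeR adjusted p = 0.911, 0.0057 before adjustment), and in T5 it averaged 25.8 ± 4.34 CPM (T5 against T3 -0.46 ± 0.16, edgeR adjusted p = 0.361). *Mtr*, the methionine synthase gene that joins the folate and cobalamin cycles, averaged 5.12 ± 0.82 CPM in T5 and 7.48 ± 2.33 CPM in CTRL (-0.55 ± 0.25, edgeR adjusted p = 0.627). Between T5 and T3, 5 of the 24 were lower and 0 higher at an unadjusted p under 0.05, where 6.15% of all genes were lower and 4.31% higher.

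For biotin and pantothenate, 0 of 18 tested genes passed in any comparison by edgeR, with 2 higher and 4 lower at an unadjusted p under 0.05 in T1 against CTRL. *Acacb*, an acetyl-CoA carboxylase that uses biotin, averaged 62.1 ± 11.8 CPM in T1 and 36.7 ± 10.6 CPM in CTRL (0.76 ± 0.19, edgeR adjusted p = 0.131). *Mccc2*, a subunit of another biotin enzyme, averaged 42.6 ± 4.46 CPM in T1 and 53.9 ± 4.24 CPM in CTRL (-0.34 ± 0.11, edgeR adjusted p = 0.138). The biotin enzymes named by rank therefore lay on both sides of CTRL. In that comparison 9.43% of all genes were higher and 11.7% lower at the same level.

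For sulfate, 0 of 17 tested genes of transport and activation passed in any comparison by edgeR. The median log2 fold change was 0.05 in T1, 0.18 in T3 and 0.07 in T5 against CTRL and -0.01 in T5 against T3, beside 0.08, 0.02, 0.02 and 0.01 for all genes. *Slc26a7*, an anion exchanger, averaged 20.8 ± 9.57 CPM in T3 and 12.6 ± 1.49 CPM in CTRL, and *Slc26a2* 45.6 ± 24.7 and 28.3 ± 4.26 CPM (edgeR adjusted p = 0.911 for both). The *Slc26a2* mean in T3 rested on replicate 4, at 82.5 CPM beside 30.1 to 36.5 CPM in the other 3. *Tst*, thiosulfate sulfurtransferase, averaged 8.51 ± 2.73 CPM in T5 and 4.33 ± 0.42 CPM in T3 (0.97 ± 0.26, edgeR adjusted p = 0.27).

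The remaining lists also had 0 calls by edgeR in all 4 comparisons. Of 6 tested thiamine genes and of 9 tested ascorbate genes, 0 and 2 stood at an unadjusted p under 0.05 in T1 against CTRL, and none in the other comparisons. Over the 18 tested genes for riboflavin, cobalamin and pyridoxine, the median log2 fold change against CTRL was 0.04 in T1, 0.12 in T3 and 0.01 in T5. Of 6 genes for vitamin E and selenium, *Lrp8*, a receptor for selenoprotein P, averaged 115 ± 13.2 CPM in T1 and 82.6 ± 15.5 CPM in CTRL (0.47 ± 0.13, edgeR adjusted p = 0.132). Its T5 mean was 83.6 ± 2.90 CPM, beside 103 ± 10.6 CPM in T3 (edgeR adjusted p = 0.46).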

How the data were processed

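The deposited table holds raw read counts per Ensembl gene for 17 libraries, per the file headers and the labels; Trimmomatic 0.39, STAR 2.6.1b, featureCounts 1.6.4 and GRCm38 are named in the submitters' processing notes, without roles or settings. Libraries were made with the SMART-Seq v4 kit, which amplifies full-length cDNA, per the labels' protocols. Groups came from the labels, and no batch is named there. Symbols, coordinates and exon lengths came from GENCODE M21, which held 55394 of the 55487 IDs, and promoters from RefSeq.

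Counts were tested with edgeR 4.0.16 (R 4.3.3; TMM, filterByExpr, robust quasi-likelihood F test, all 17 libraries, 1 mean per group), with Benjamini-Hochberg adjustment over 16851 genes and a threshold of 0.05. CPM are TMM-normalised unless stated, and log2 CPM used a prior count of 2. SE is the log2 fold change divided by the root of F, an approximation. The biological coefficient of variation was 37.6%. On counts simulated for T1 against CTRL, over 16851 genes of which 200 were changed, 15% of 2-fold and 92% of 4-fold changes were recovered, with 8 false calls. Small changes could therefore be missed at this spread.

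The 7 genes, the marker and pathway lists, and the alternatives with brain markers or title numbers were chosen with earlier results of these data known. All 7 genes are named, with up to 2 genes of lowest p per pathway list and comparison described, and 3 nearest genes for likeness; 1 gene that the rule would name is not reported here. Alternatives were RLE factors, other filters, DESeq2 1.42.0, limma 3.58.1 (voom, quality weights), fits of 2 groups, the covariates, and omitted libraries.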

Additional observations from a re-analysis of the deposited data

Results flagged for a closer look

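Each gene was checked in each group for a highest or lowest library whose gap to its neighbour took an unusually large share of the range of the group. Of the 28 sets of libraries, 4 met this. For a single set of normal values chance would give about 1 in 20. The genes share the same libraries, so the 28 sets are not independent and no excess over chance was measured. The lowest CTRL library was the outlying one for *Slc19a1*, at 82.7 CPM in replicate 1, with a gap of 0.949 of the range (limit 0.71 for 5 libraries). It was also the outlying one for *Slc5a6*, at 84.2 CPM in replicate 1, with a gap of 0.728 of the range. In T3, *Slc5a6* was highest in replicate 4 at 204.0 CPM, with a gap of 0.85 (limit 0.829 for 4 libraries). *Slc19a2* was lowest in T3 replicate 1 at 40.7 CPM, with a gap of 0.876 of the range.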

How the results depend on the processing

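No transporter gene was called in any of 756 values, from 27 alternatives in each of 4 comparisons; 60 had another sign than the value reported, all uncalled, and the cause was not tested. Calls over all genes did depend on the tool. DESeq2 called 826 genes in T1 against CTRL, 2 in T3 against CTRL, 16 in T5 against CTRL and 84 in T5 against T3, and limma 4084 in T1 against CTRL. Leaving out 1 library gave 0 to 2203 calls in T1 against CTRL (2203 without T1 replicate 1, 717 without T3 replicate 4) and 0 to 1 in T5 against T3 (1 without T5 replicate 4).

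Signs changed as follows (log2 fold changes, T1, T3 and T5 each against CTRL unless stated). With the brain marker covariate, T1 gave 0.0333 for *Folr1*, 0.102 for *Slc46a1* and 0.0234 for *Slc19a1*, T5 gave 0.00773 for *Slc19a1*, and T5 against T3 gave 0.186 for *Slc46a1*. With limma, T3 gave 0.065 for *Folr1* and -0.0596 for *Slc19a1*, and T5 gave -0.00613 for *Slc46a1* and -0.0367 for *Slc23a2*. With no filter on low counts, T5 gave -0.00513 for *Slc23a2*. With a term for title numbers of 28 and above, T1 gave 0.343 for *Folr1*, 0.187 for *Slc46a1*, -0.0619 for *Slc13a4* and -0.00804 for *Slc5a6*, and T3 gave 0.14 for *Folr1* and -0.00871 for *Slc19a1*. Without those libraries, T1 gave 0.378 for *Folr1*, 0.124 for *Slc46a1*, -0.0202 for *Slc23a2* and -0.115 for *Slc13a4*, and T3 gave 0.122 for *Folr1* and -0.00327 for *Slc19a1*. Without them and CTRL replicate 1, chosen after seeing the data, T1 (1 library, assumed to vary like the others) gave 0.197 for *Folr1*, -0.167 for *Slc23a2*, -0.259 for *Slc13a4* and -0.119 for *Slc5a6*. In that fit T3 gave -0.00844 for *Slc46a1*, -0.153 for *Slc19a1* and -0.0881 for *Slc5a6*, and T5 gave -0.00936 for *Folr1*, -0.117 for *Slc46a1*, -0.146 for *Slc23a2* and -0.137 for *Slc19a2*.

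Leaving out 1 library at a time, T3 ran from -0.221 to 0.119 for *Folr1*, from -0.103 to 0.141 for *Slc46a1* and from -0.129 to 0.0865 for *Slc19a1*. T5 ran from -0.00563 to 0.284 for *Folr1*, from -0.112 to 0.116 for *Slc46a1*, from -0.224 to 0.0229 for *Slc19a1*, from -0.141 to 0.0708 for *Slc23a2* and from -0.133 to 0.152 for *Slc19a2*. T5 against T3 ran from -0.108 to 0.0612 for *Slc46a1* and from -0.204 to 0.0111 for *Slc19a1*. The 21 tests relative to epithelium markers had 0 passing under each alternative; RLE factors cancel there and were not run. No paired analysis was possible because the labels give no replicate numbers, and those used only name libraries.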
